A study of Homo sapiens with 9 samples.

Results

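Cells draw reducing power for biosynthesis and for the thioredoxin and glutathione systems from NADPH. The genes described here are the 8 that supply NADPH or its precursor outside the pentose phosphate pathway: the malic enzymes ME1, ME2 and ME3, the NADP-linked isocitrate dehydrogenases IDH1 and IDH2, the transhydrogenase NNT, and the NAD kinases NADK and NADK2. They were taken by gene symbol from the deposited table, where all 8 were found, 1 row each, among 18364 genes.

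The data are bulk RNA-seq profiles of 9 tumours that grew in the brains of nude mice after injection of LN229 cells, an established human glioblastoma line. In 6 tumours the cells expressed TAZ-4SA, a modified version of TAZ, the Hippo pathway coactivator, and in 3 they held an empty vector (EV). All tumours were taken at the terminal stage. The series deals with thioredoxin reductase 1 and with disulfidptosis, the death of glucose-starved cells that run short of NADPH while reducing cystine. Nude mice lack a thymus and keep other host cells, so a tumour sample can hold mouse tissue. The labels do not say which promoter drives TAZ-4SA, whether each line is 1 clone, or whether each tumour comes from its own animal. The p-values therefore reflect only how much these samples vary.

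A malic enzyme turns malate into pyruvate and passes the electrons to NADP+, or in the case of ME2 to either NAD+ or NADP+. An NADP-linked isocitrate dehydrogenase turns isocitrate into 2-oxoglutarate and makes NADPH in the cytosol and peroxisomes (IDH1) or in mitochondria (IDH2). NNT, in the inner mitochondrial membrane, uses the proton gradient to pass electrons from NADH to NADP+, and the NAD kinases phosphorylate NAD+ to NADP+, the substrate of the NADPH-making enzymes, in the cytosol (NADK) or in mitochondria (NADK2). RNA levels were measured here, not enzyme activity or NADPH.

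WWTR1, which encodes TAZ, averaged 331 ± 74.6 CPM in TAZ-4SA tumours (SD, n = 6) and 120 ± 3.17 CPM in EV tumours (SD, n = 3), with no overlap (two-sided exact permutation test, p = 0.0238, the smallest these numbers allow). CPM are a gene's reads scaled to the library size behind the deposited values, which differed from the read total. A read stood for 0.0359 CPM in TAZ-4SA tumour 4 (31468135 reads) and 0.0645 CPM in EV tumour 3 (17314672 reads). How that size was set was not given in the sources used here. Libraries stood apart in depth and detection: TAZ-4SA tumours 5 and 6 were the shallowest, with 3299325 and 3144861 reads, beside 9151541 to 31468135 reads in the other TAZ-4SA tumours and 17314672 to 21576264 in EV tumours. Genes with 0 reads numbered 2990 to 7365 per TAZ-4SA tumour, fewest in tumour 5 and most in tumours 2, 3 and 4, and 505 to 622 per EV tumour.

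ME2 and NNT rose in TAZ-4SA tumours, and IDH2 and NADK fell. IDH1 lay higher in every TAZ-4SA tumour than in any EV tumour but did not pass the test, and ME1, ME3 and NADK2 overlapped between the groups and did not pass it either. In limma with Benjamini-Hochberg adjustment at 0.05 over 15578 genes, 2 of the 8 genes were higher and 2 were lower, beside 9.02% of all genes higher (1405 genes) and 13.3% lower (2079 genes). After quantile normalization 1920 genes were higher and 1624 lower, the median over all genes moved to -0.15, and the same 4 members were called in the same directions. The median difference of the 8 genes was 0.88 on the log2 scale, beside -0.85 over all genes tested, where a difference is the mean log2 CPM of TAZ-4SA tumours minus that of EV tumours. The 4 calls were all lost when any 1 of the 3 EV tumours was left out, and also with a trend on transcript GC content removed.

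**Figure D1:**
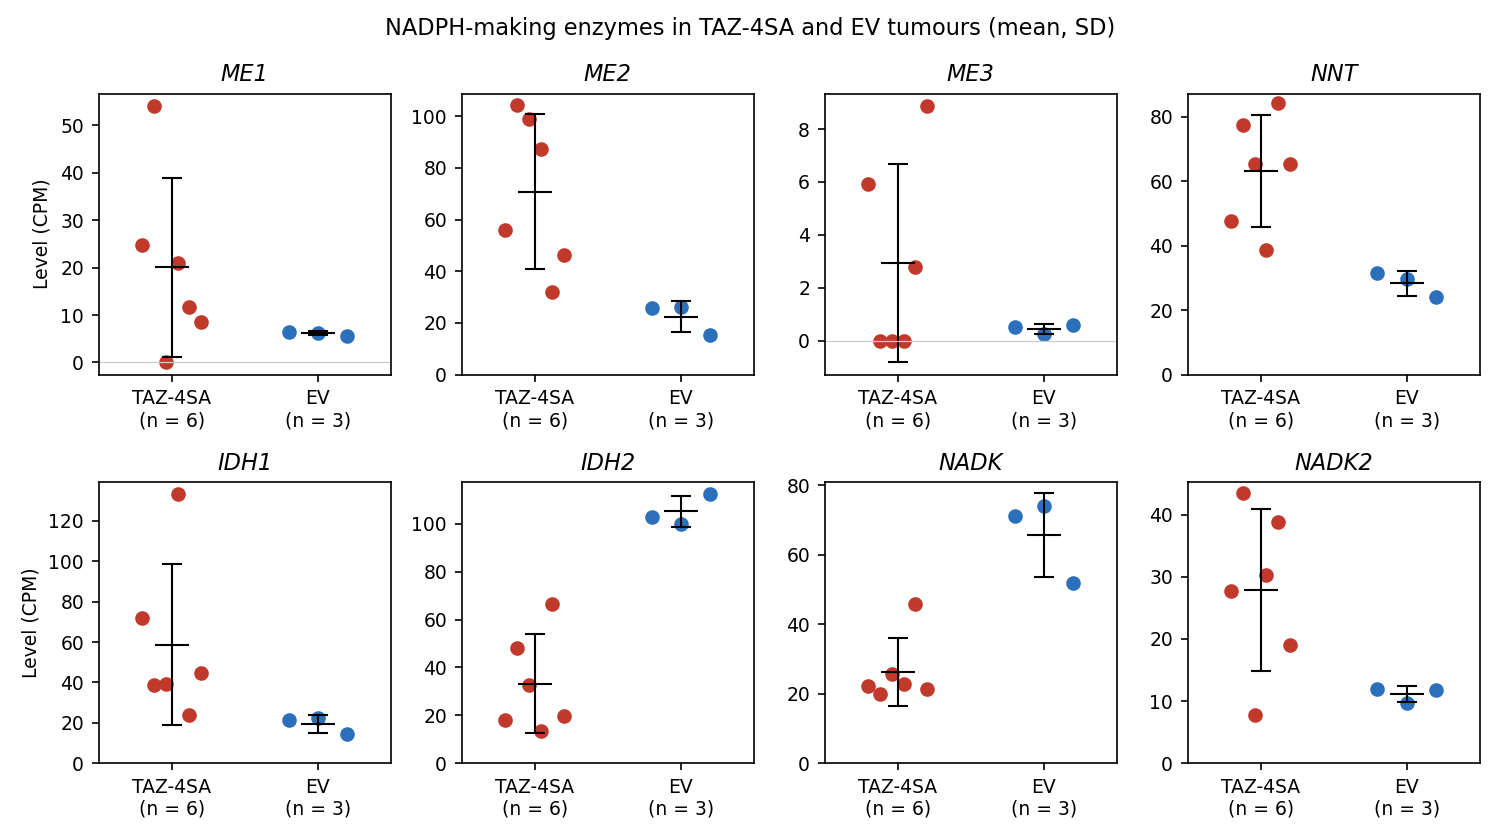
Level of each of the 8 genes in CPM on a linear axis, 1 point per tumour, with TAZ-4SA tumours left of EV tumours in each panel; black lines give the group mean and SD. ME2, IDH1 and NNT lie higher in all 6 TAZ-4SA tumours than in the 3 EV tumours, and IDH2 and NADK lie lower.

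TAZ acts on genes through TEAD factors, and the antioxidant factor NRF2 binds antioxidant response elements, so the 250 bases before each listed start of the 8 genes in the RefSeq promoter table (GRCh38.p14) were searched on both strands for a TEAD motif (GGAATG, or CATTCC on the other strand) and for an antioxidant response element (TGACNNNGC, or GCNNNGTCA). The 8 genes had 16 listed starts. None of those listed for IDH2 and NADK was at the 5′ end of the gene. The TEAD letters stood in 2 of these 16 windows and in 11.9% of the 35116 windows of all genes, and the antioxidant letters in 2 of 16 and in 10.9% of all windows. The windows at the 5′ end of NNT, ME1 and IDH1 are shown because they hold a match, and that of ME2 because ME2 had the largest rise among the called genes and held none; capitals mark the match.
NNT, chr5:43602425-43602674, plus strand: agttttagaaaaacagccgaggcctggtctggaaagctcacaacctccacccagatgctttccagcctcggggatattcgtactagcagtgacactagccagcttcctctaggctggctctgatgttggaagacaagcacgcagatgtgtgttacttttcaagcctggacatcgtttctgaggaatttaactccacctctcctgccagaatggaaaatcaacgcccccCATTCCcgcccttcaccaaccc
ME1, chr6:83431052-83431301, minus strand: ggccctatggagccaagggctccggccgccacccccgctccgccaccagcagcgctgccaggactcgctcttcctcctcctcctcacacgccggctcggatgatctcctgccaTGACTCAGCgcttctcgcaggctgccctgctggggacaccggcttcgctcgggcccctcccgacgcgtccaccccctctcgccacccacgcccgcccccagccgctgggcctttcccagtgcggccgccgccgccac
IDH1, chr2:208255072-208255321, minus strand: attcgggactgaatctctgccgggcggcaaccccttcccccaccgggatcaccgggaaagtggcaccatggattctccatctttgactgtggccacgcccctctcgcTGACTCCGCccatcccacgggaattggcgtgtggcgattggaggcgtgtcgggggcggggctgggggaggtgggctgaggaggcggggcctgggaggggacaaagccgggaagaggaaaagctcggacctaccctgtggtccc
ME2, chr18:50878868-50879117, plus strand: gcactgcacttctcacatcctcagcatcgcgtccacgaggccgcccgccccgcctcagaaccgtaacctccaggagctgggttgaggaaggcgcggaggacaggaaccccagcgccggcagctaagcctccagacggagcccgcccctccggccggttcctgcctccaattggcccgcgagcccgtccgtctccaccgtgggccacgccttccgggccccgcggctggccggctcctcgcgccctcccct
The capitals in NNT are the TEAD letters on the other strand, and those in ME1 and IDH1 are antioxidant letters. They begin at position -22 in NNT, -137 in ME1 and -143 in IDH1, counted back from the start. The other TEAD match lay before an internal start of IDH2. A match is a run of letters, and no binding was measured.

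Of the malic enzymes, the mitochondrial ME2 (Entrez 4200, chromosome 18, 50879118 to 50954257, GRCh38) was higher in TAZ-4SA tumours. It had 56.1, 104, 98.9, 87.3, 31.9 and 46.2 CPM in TAZ-4SA tumours 1 to 6, against 25.8, 26.0 and 15.4 CPM in EV tumours. Every TAZ-4SA tumour lay above every EV tumour, tumour 5 by the least. The means were 70.8 ± 30.1 CPM in TAZ-4SA tumours (SD, n = 6) and 22.4 ± 6.08 CPM in EV tumours (SD, n = 3), a difference of 1.57 on the log2 scale (SE 0.45, limma adjusted p = 0.0259). Without EV tumour 1, 2 or 3 the difference was 1.69, 1.69 or 1.32 and the adjusted p 0.0731, 0.0722 or 0.124, and over all 25 alternatives the adjusted p lay between 0.00229 and 0.207. RefSeq lists a pseudogene, ME2P1, which is not analysed here.

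ME1, the cytosolic malic enzyme (Entrez 4199, chromosome 6, 83210402 to 83431051), spread over a wide range among TAZ-4SA tumours. It had 24.8, 54.0, 0.123, 21.1, 11.8 and 8.56 CPM in TAZ-4SA tumours, against 6.51, 6.22 and 5.67 CPM in EV tumours. In TAZ-4SA, 5 tumours lay above the highest EV tumour, and tumour 3, with 2 reads of ME1, lay below the lowest. The means were 20.1 ± 18.8 CPM in TAZ-4SA tumours (SD, n = 6) and 6.14 ± 0.425 CPM in EV tumours (SD, n = 3), and the log2 difference of 0.62 had a 95% interval of -2.62 to 3.86 (limma adjusted p = 0.785). The difference was 1.65 without TAZ-4SA tumour 3 and did not pass the test under any of the 25 alternatives, where the adjusted p lay between 0.0720 and 0.994.

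ME3, the other mitochondrial malic enzyme (Entrez 10873, chromosome 11, 86434930 to 86672616), was close to the detection limit in many tumours. It had 5.93, 0, 0, 0, 2.80 and 8.86 CPM in TAZ-4SA tumours, from 111, 0, 0, 0, 10 and 29 reads, against 0.515, 0.233 and 0.580 CPM in EV tumours, from 11, 4 and 9 reads. TAZ-4SA tumours 1, 5 and 6 lay above all EV tumours, and tumours 2, 3 and 4 had 0 reads. In those 3 tumours, 0 reads allow at most 0.303, 0.184 and 0.108 CPM, the level of 3 reads, which covers counting error only. That limit in tumour 2 is above the level of EV tumour 2, so these 2 could not be ordered. The log2 difference of 0.65 had a 95% interval of -2.83 to 4.13 (limma adjusted p = 0.789). It was 3.27 without TAZ-4SA tumours 2, 3 and 4 (adjusted p = 0.0345), -0.62 without tumours 5 and 6 and -0.017 without tumour 6 alone. The adjusted p over 24 alternatives lay between 0.0345 and 0.994.

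IDH2, which makes NADPH in mitochondria (Entrez 3418, chromosome 15, 90083045 to 90102468), fell in TAZ-4SA tumours. It had 18.2, 48.1, 32.7, 13.4, 66.6 and 19.9 CPM in TAZ-4SA tumours, against 103, 100.1 and 112 CPM in EV tumours. All 6 TAZ-4SA tumours lay below all 3 EV tumours, tumour 4 the lowest and tumour 5 the nearest. The means were 33.1 ± 20.7 CPM in TAZ-4SA tumours (SD, n = 6) and 105 ± 6.49 CPM in EV tumours (SD, n = 3), a difference of -1.89 (SE 0.50, limma adjusted p = 0.0190). Without EV tumour 1, 2 or 3 the difference was -1.90, -1.92 or -1.84 with adjusted p of 0.0768, 0.0747 or 0.0777. The range of adjusted p over 25 alternatives was 9.48e-05 to 0.815.

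IDH1, its counterpart in the cytosol and peroxisomes (Entrez 3417, chromosome 2, 208236227 to 208255071), had 71.9, 38.6, 39.4, 133, 23.8 and 44.6 CPM in TAZ-4SA tumours, against 21.4, 22.6 and 14.5 CPM in EV tumours. The groups did not overlap, but TAZ-4SA tumour 5 lay just above the highest EV tumour and tumour 4 far above all others. Over all genes tested, 10.8% had every TAZ-4SA tumour above every EV tumour and 21.3% had every one below. The means were 58.6 ± 39.8 CPM in TAZ-4SA tumours (SD, n = 6) and 19.5 ± 4.35 CPM in EV tumours (SD, n = 3), and the difference of 1.38 (SE 0.52, 95% interval 0.25 to 2.50) missed the threshold (limma adjusted p = 0.0747). It passed without TAZ-4SA tumour 5 (1.59, adjusted p = 0.0347) and under 6 of 25 alternatives in all, where the adjusted p ranged over 0.00396 to 0.233. RefSeq lists a pseudogene of IDH1, IDH1P1, which is not analysed here.

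NNT, the transhydrogenase (Entrez 23530, chromosome 5, 43602675 to 43707396), rose in TAZ-4SA tumours and had the smallest SD of log2 CPM among the 8 genes there, 0.43, beside 0.44 for NADK. It had 47.7, 77.5, 65.5, 38.6, 84.2 and 65.4 CPM in TAZ-4SA tumours, against 31.5, 29.7 and 24.0 CPM in EV tumours. All TAZ-4SA tumours lay above all EV tumours. The means were 63.2 ± 17.3 CPM in TAZ-4SA tumours (SD, n = 6) and 28.4 ± 3.91 CPM in EV tumours (SD, n = 3), a difference of 1.11 (SE 0.36, limma adjusted p = 0.0434). This call was the nearest of the 4 to the threshold: it was lost without EV tumour 1 (1.19, adjusted p = 0.129), 2 (1.15, 0.143) or 3 (0.99, 0.169), without TAZ-4SA tumour 2 (1.04, 0.0508) or 6 (1.09, 0.0659), and under 11 of 25 alternatives, whose adjusted p ranged over 0.0134 to 0.546. The antisense gene NNT-AS1 overlaps NNT and averaged 16.6 CPM in TAZ-4SA tumours and 1.94 CPM in EV tumours. The library chemistry does not keep the strand, so reads in the shared bases cannot be told apart.

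NADK, the cytosolic kinase that makes NADP+ (Entrez 65220, chromosome 1, 1751232 to 1780514), fell in TAZ-4SA tumours. It had 22.2, 19.8, 25.5, 22.8, 45.9 and 21.4 CPM in TAZ-4SA tumours, against 71.2, 74.1 and 51.8 CPM in EV tumours. TAZ-4SA tumour 5 stood near the lowest EV tumour and the other 5 close together below it. The means were 26.3 ± 9.80 CPM in TAZ-4SA tumours (SD, n = 6) and 65.7 ± 12.1 CPM in EV tumours (SD, n = 3), a difference of -1.36 (SE 0.40, limma adjusted p = 0.0284). Without EV tumour 1, 2 or 3 the difference was -1.30, -1.27 or -1.53 and the adjusted p 0.158, 0.167 or 0.0727, within a range of 0.00109 to 0.632 over 25 alternatives. With the GC trend removed the sign turned and the difference was 0.37 (adjusted p = 0.632).

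NADK2, the mitochondrial kinase (Entrez 133686, chromosome 5, 36192589 to 36242279), had 27.7, 43.5, 7.81, 30.3, 38.9 and 18.9 CPM in TAZ-4SA tumours, against 11.9, 9.71 and 11.8 CPM in EV tumours. In TAZ-4SA, 5 tumours lay above all EV tumours and tumour 3 below them. The means were 27.9 ± 13.1 CPM in TAZ-4SA tumours (SD, n = 6) and 11.1 ± 1.24 CPM in EV tumours (SD, n = 3), and the difference of 1.13 had a 95% interval of -0.29 to 2.55 (limma adjusted p = 0.227). Without TAZ-4SA tumour 3 it was 1.45 and passed (adjusted p = 0.0418), and the range over 25 alternatives was 0.0354 to 0.475. NADK2 overlaps SKP2, a cell cycle gene with 45.2 CPM in TAZ-4SA tumours and 28.9 CPM in EV tumours, and shared bases cannot be assigned without the strand.

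**Figure D2:**
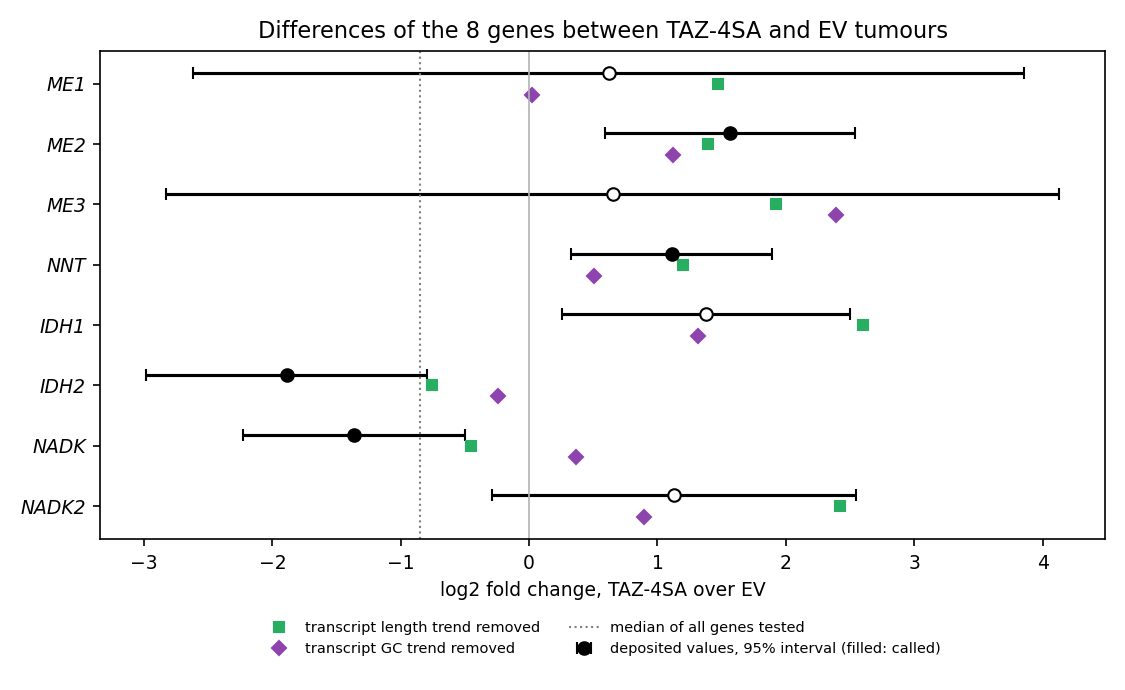
Difference in log2 CPM, TAZ-4SA minus EV, of each of the 8 genes, with its 95% interval from limma (filled where called); squares and diamonds give the difference with the trend on transcript length or GC content removed, and the dotted line the median of all genes tested, -0.85. The intervals of ME2, NNT, IDH2, NADK and IDH1 exclude 0, and without the GC trend NADK lies at 0.37.

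The cytosolic and mitochondrial forms of an enzyme can be compared within each tumour, where the library's scaling cancels. The log2 ratio of IDH1 to IDH2 was 1.98, -0.32, 0.27, 3.30, -1.48 and 1.16 in TAZ-4SA tumours, against -2.26, -2.14 and -2.94 in EV tumours. IDH2 RNA exceeded IDH1 RNA in every EV tumour, and the 6 TAZ-4SA tumours lay on both sides of equal CPM, all above the EV tumours. The mean ratio was 0.82 ± 1.70 in TAZ-4SA tumours and -2.45 ± 0.43 in EV tumours (SD, n = 6 and 3), a difference of 3.27 that ranged over 2.77 to 3.73 when 1 tumour was left out. With the GC trend of all genes removed it was 1.56 and the groups overlapped. Per kilobase of transcript, IDH1 made up 62.8% ± 23.4 of the reads of the 2 genes in TAZ-4SA tumours (SD, n = 6) and 17.0% ± 3.99 in EV tumours (SD, n = 3). These ratios rest on the CPM values given above, so no separate test was made.

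The kinases differed in the opposite direction. The log2 ratio of NADK to NADK2 was -0.32, -1.13, 1.69, -0.41, 0.24 and 0.17 in TAZ-4SA tumours, against 2.57, 2.91 and 2.12 in EV tumours. The groups did not overlap: the cytosolic form led clearly in EV tumours, and the TAZ-4SA tumours lay on both sides of equal CPM, NADK2 leading most in tumour 2 and NADK in tumour 3. The mean ratio was 0.04 ± 0.95 in TAZ-4SA tumours and 2.53 ± 0.40 in EV tumours (SD, n = 6 and 3), a difference of -2.49, or -2.82 to -2.26 when 1 tumour was left out. With the GC trend removed it was -0.53 and the groups overlapped. Per kilobase, NADK held 42.0% ± 15.4 of the kinase reads in TAZ-4SA tumours (SD, n = 6) and 80.0% ± 4.44 in EV tumours (SD, n = 3). The malic enzyme balance was not separated in this way: ME1 to ME2 was -1.17, -0.95, -8.53, -2.04, -1.43 and -2.41 in TAZ-4SA tumours, against -1.96, -2.04 and -1.42 in EV tumours. That difference was -0.95 with all tumours and 0.21 without TAZ-4SA tumour 3.

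**Figure D3:**
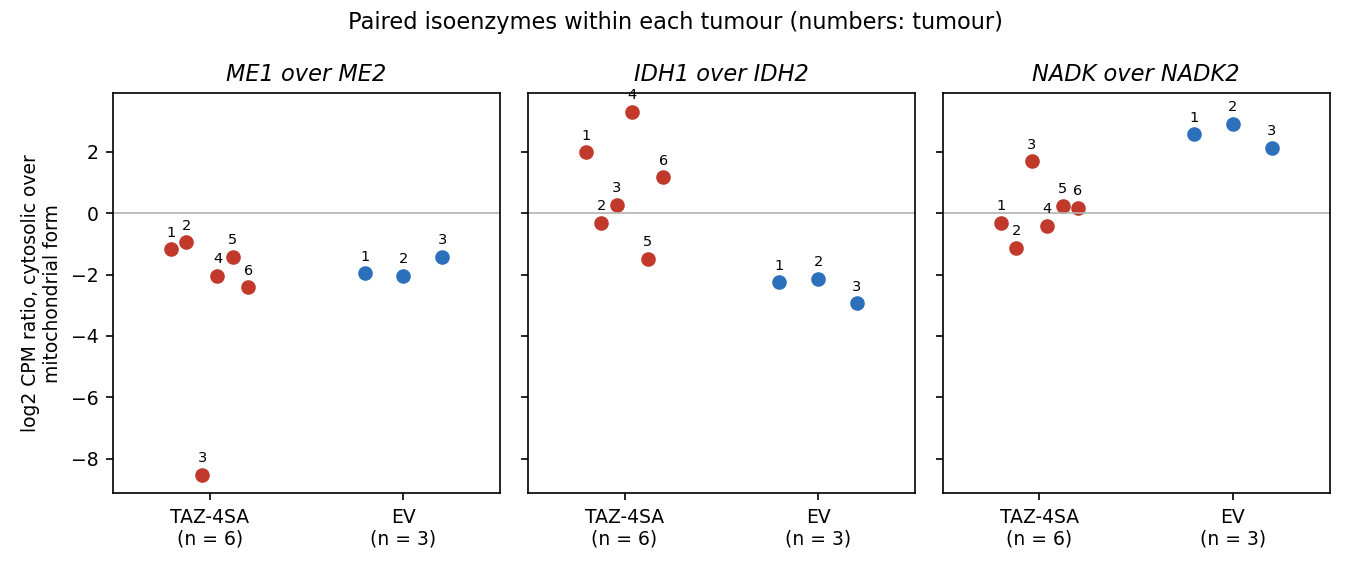
Log2 ratio of the cytosolic to the mitochondrial form in each tumour, for ME1 to ME2, IDH1 to IDH2 and NADK to NADK2, with TAZ-4SA tumours left of EV tumours and tumour numbers beside the points. TAZ-4SA tumours lie above EV tumours for IDH1 to IDH2, below them for NADK to NADK2, and around them for ME1 to ME2, apart from tumour 3 at -8.53.

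Levels per kilobase rest on the length of 1 chosen transcript per gene. ME2, with the longest (9415 bases), had the highest mean CPM of the 8 in TAZ-4SA tumours, 70.8. Per kilobase of transcript, the order of the 8 levels differed between the groups. In TAZ-4SA tumours it ran IDH1 (24.0 ± 16.3 CPM per kilobase), NADK2 (12.4 ± 5.83), IDH2 (12.3 ± 7.67), NNT (9.74 ± 2.67), NADK (8.12 ± 3.03), ME2 (7.52 ± 3.19), ME1 (5.95 ± 5.59) and ME3 (1.27 ± 1.62), and each gene overlapped its neighbour (SD, n = 6). In EV tumours IDH2 led with 39.0 ± 2.41 CPM per kilobase, followed by NADK with 20.3 ± 3.74 and IDH1 with 7.98 ± 1.78 (SD, n = 3), with no overlap between these. Then came NADK2 (4.96 ± 0.551) and NNT (4.38 ± 0.603), which overlapped, ME2 (2.38 ± 0.645) and ME1 (1.82 ± 0.126), which also overlapped, and ME3 (0.192 ± 0.0800). The genes of cytosolic enzymes ME1, IDH1 and NADK together took 46.1% ± 12.9 of the summed level per kilobase of all 8 in TAZ-4SA tumours and 37.0% ± 5.26 in EV tumours. These shares overlapped between the groups, at 31.5% to 66.8% in TAZ-4SA tumours and 31.0% to 41.0% in EV tumours.

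On the log2 scale all 8 genes varied more among TAZ-4SA tumours than among EV tumours. In CPM, NADK went the other way, with an SD of 9.80 in TAZ-4SA tumours and 12.1 in EV tumours. The median SD of log2 CPM over all genes tested was 1.50 in TAZ-4SA tumours and 0.27 in EV tumours. Only ME1 and ME3 exceeded it in TAZ-4SA tumours, and 4 of the 8 genes exceeded it in EV tumours. Over genes averaging 10 to 100 CPM, this median was 1.09 in TAZ-4SA tumours and 0.25 in EV tumours. TAZ-4SA tumour 5 had the highest IDH2, NADK and NNT and the lowest ME2 and IDH1 of its group.

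The direction of 7 of the 8 genes went with the GC content of their transcripts in the way of the medians over all genes, and ME3 had the opposite sign. Of the 5183 tested genes with a transcript under 45% GC, 18.9% were called higher and 3.40% lower, with a median log2 difference of 0.37. Of the 4926 genes with at least 55% GC, 2.09% were called higher and 24.4% lower, with a median of -1.98. ME1 (39.5% GC), NNT (39.5%), ME2 (40.6%), NADK2 (42.0%) and IDH1 (43.1%) were in the first class and all had positive differences, and IDH2 (55.9%) and NADK (56.7%), which fell, and ME3 (56.8%), which had a positive difference of 0.65 and did not pass, were in the last. With the GC trend of all genes removed from each tumour, ME2 stood at 1.12 (limma adjusted p = 0.207), NNT at 0.51 (0.546), IDH2 at -0.24 (0.815) and NADK at 0.37 (0.632), so none of the 4 passed and NADK changed sign. With the trend on transcript length removed in the same way, the differences were 1.39 for ME2 (adjusted p = 0.129), 1.20 for NNT (0.0866), -0.76 for IDH2 (0.379) and -0.45 for NADK (0.544), and IDH1 (2.60, 0.0105) and NADK2 (2.42, 0.0354) passed. Both alternatives were added after the data were seen. Whether the GC trend comes from the tumours or from the libraries was not tested.

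**Figure D4:**
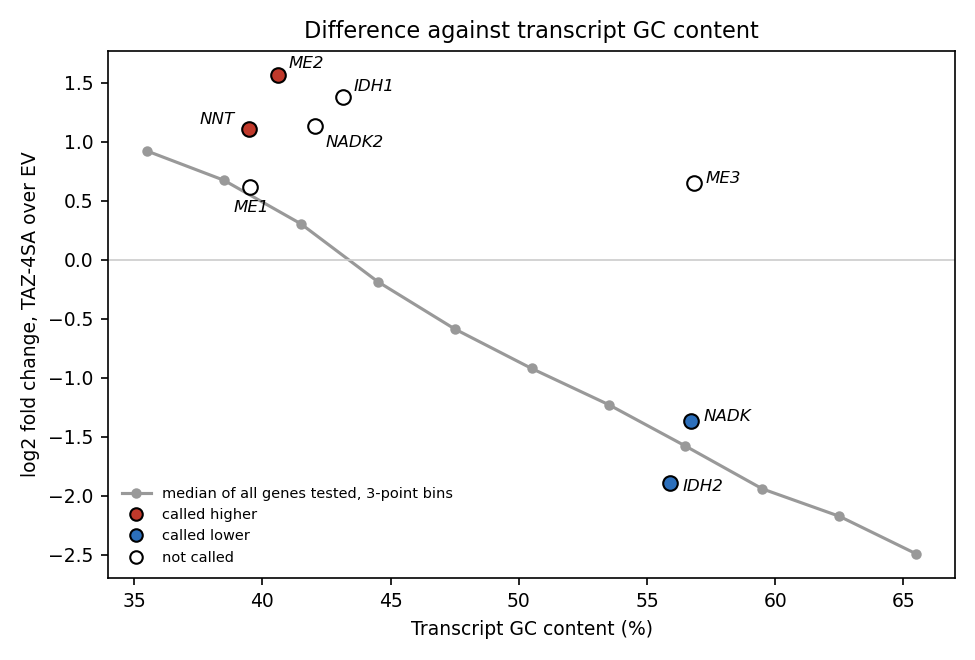
Log2 difference, TAZ-4SA minus EV, against transcript GC content in percent; the grey line gives the median of all genes tested in bins 3 points wide and labelled points the 8 genes, coloured where called. The median over all genes falls with GC content, and the 5 genes under 45% GC lie above 0, as does ME3, while IDH2 and NADK lie below it.

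Genes around these enzymes were taken as 5 lists of 72 genes, 69 of them tested. In all 5 lists together 8 genes were higher, 4 lower and 57 did not pass, which is 17.4% called, beside 22.4% of all genes. In the TCA cycle list, which holds the enzymes that make and use isocitrate, malate and 2-oxoglutarate, 3 of 20 genes were higher, 1 was lower and 16 did not pass, with a median log2 difference of 0.015. ACO1, the cytosolic aconitase that makes isocitrate for IDH1, averaged 91.2 ± 16.2 CPM in TAZ-4SA tumours and 34.5 ± 4.71 CPM in EV tumours, a difference of 1.39 (limma adjusted p = 0.00702). DLD, the shared dehydrogenase subunit of the 2-oxoacid complexes, and SUCLG2, a succinyl-CoA ligase subunit, were higher by 1.32 and 1.24. IDH3B, a subunit of the NAD-linked isocitrate dehydrogenase, fell to 116 ± 44.0 CPM in TAZ-4SA tumours, against 242 ± 39.8 CPM in EV tumours (-1.13, adjusted p = 0.0328).

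In the list of citrate, malate and glutamine supply, 1 of 15 genes was higher and none was lower, with a median of -0.51. In the list of NAD synthesis and turnover, which supplies the substrate of the NAD kinases, 2 of 12 tested genes were higher and 1 was lower, with a median of -0.75. NAMPT, the rate-limiting enzyme of NAD salvage, averaged 96.9 ± 51.4 CPM in TAZ-4SA tumours and 24.5 ± 1.73 CPM in EV tumours (1.82, adjusted p = 0.00992). NNMT, which methylates and so removes nicotinamide, averaged 39.5 ± 23.8 CPM in TAZ-4SA tumours and 5.39 ± 2.46 CPM in EV tumours (2.69, adjusted p = 0.0169). NMNAT3, which makes NAD in mitochondria, had 0 reads in 5 of 6 TAZ-4SA tumours and 3 reads (0.303 CPM) in tumour 2, against 3.60 to 4.26 CPM in EV tumours (adjusted p = 0.00402).

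Of 9 genes in the list of pentose phosphate and folate pathway enzymes, 1 was higher (MTHFD2, 1.42) and 2 were lower (H6PD, -1.78, and PGD, -1.17). Of 13 tested NADPH users, 1 was higher, TXNRD1, the cytosolic thioredoxin reductase, by 1.99 (limma adjusted p = 0.00273). Of the 12 genes called in these lists, 5 remained called without EV tumour 1, 4 without EV tumour 2 and 6 without EV tumour 3. Leaving out TAZ-4SA tumour 1, 2, 4 or 6 left 9, 11, 10 or 10 called, and leaving out tumour 3 or 5 left all 12. With the GC trend removed, ACO1, NNMT, NMNAT3 and TXNRD1 remained called, IDH3B was at 0.38 and PGD at 0.15, and neither passed; with the length trend removed, IDH3B was at 0.33 and PGD at 0.21, again not past the test.

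**Figure D5:**
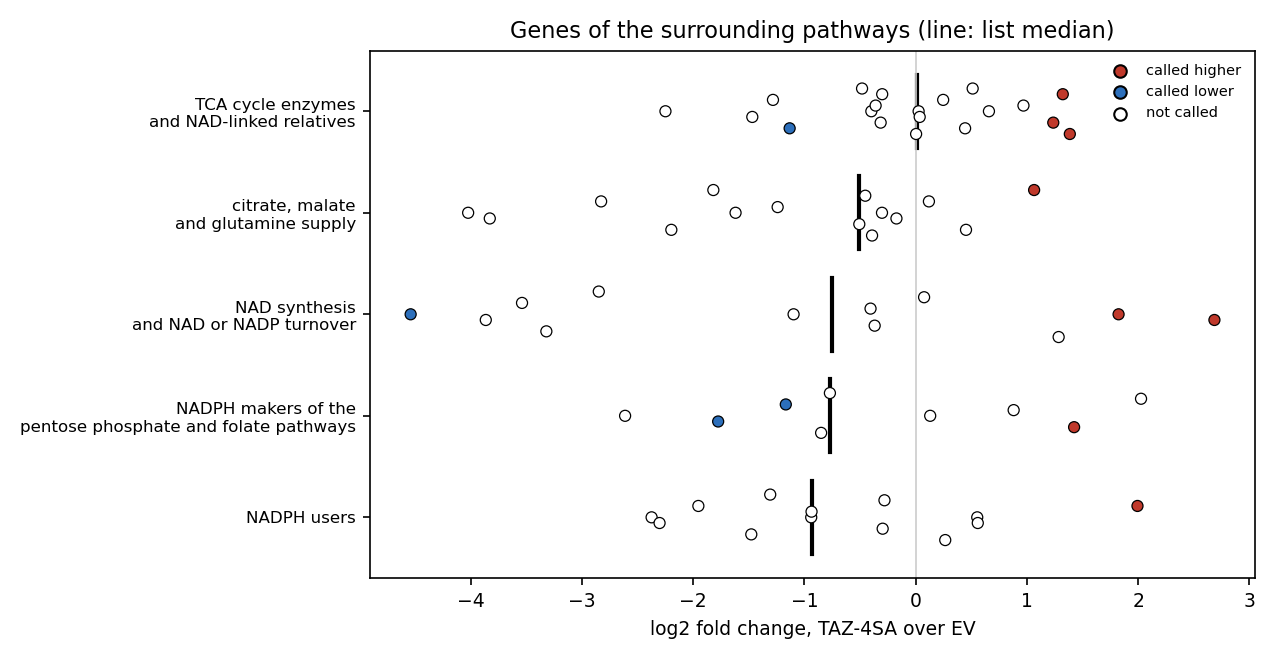
Log2 difference, TAZ-4SA minus EV, of each tested gene of the 5 surrounding lists, with a line at the median of each list; coloured points passed the limma test. The list medians lie between -0.94 and 0.015, and 12 of the 69 genes are coloured.

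For the 3 members with the smallest p-values, the genes with the most similar levels over the 9 tumours were sought among 10446 genes of at least 10 CPM. They were RBM10 (Pearson r = 0.983) and CD81 (0.979) for IDH2, MEPCE (0.986) and RAB7B (0.983) for NADK, and RSF1 (0.970) and IGF2BP2 (0.967) for ME2. These values describe the 9 tumours, which share the group difference, the depth and the GC trend.

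Markers of host brain cells also differed between the tumours. The 6 neuron markers summed to 84.5 to 1291 CPM in TAZ-4SA tumours, against 29.7 to 133 CPM in EV tumours. Their sum was highest in TAZ-4SA tumours 5 and 6. The 6 measured markers of microglia and macrophages summed to 65.7 to 178 CPM in TAZ-4SA tumours, against 28.1 to 39.5 CPM in EV tumours. On average most of this sum in TAZ-4SA tumours was CD68, with 88.2 CPM there and 16.4 CPM in EV tumours. TMEM119 averaged 16.6 and 12.7 CPM, CSF1R 5.67 and 1.02 CPM, ITGAM 5.40 and 2.26 CPM, and PTPRC 2.07 and 0.0350 CPM. P2RY12 was at 0 in all TAZ-4SA tumours. Astrocyte markers summed to 0.0719 to 116 CPM in TAZ-4SA tumours, against 182 to 265 CPM in EV tumours. That sum was mostly S100B in EV tumours (2.95 CPM on average in TAZ-4SA tumours and 208 CPM in EV tumours), while GFAP (22.6 and 12.6 CPM), AQP4 (0.896 and 0.253 CPM) and SLC1A2 (4.27 and 0.603 CPM) had higher means in TAZ-4SA tumours. Endothelial markers summed to 0 to 13.2 CPM in TAZ-4SA tumours, against 9.48 to 14.6 CPM in EV tumours, and oligodendrocyte markers to 8.52 to 315 CPM in TAZ-4SA tumours, with MOG and MOBP at 0, against 153 to 240 CPM in EV tumours. The 7 glioblastoma cell markers summed to 2342 to 3821 CPM in TAZ-4SA tumours, against 3221 to 3605 CPM in EV tumours, mostly from VIM, and single markers differed in both directions. EGFR averaged 375 CPM in TAZ-4SA tumours and 10.4 CPM in EV tumours, CD44 309 and 97.6 CPM, and SOX9 27.1 and 2.61 CPM. NES averaged 158 CPM in TAZ-4SA tumours and 1324 CPM in EV tumours, PTPRZ1 12.3 and 96.1 CPM, and SOX2 10.8 and 37.9 CPM. In bulk samples, fewer cells of a type and less RNA per cell cannot be told apart. The part of host tissue in the values of the 8 genes was not tested. With the tumours of highest neuron sums, TAZ-4SA 5 and 6, left out, ME2, IDH2 and NADK remained called. IDH1 then passed (1.68, limma adjusted p = 0.0483) and NNT did not (0.97, limma adjusted p = 0.0672). Those tumours were also the shallowest libraries, so neuron sum and depth were removed together. TAZ-4SA tumour 1, with the highest microglia and macrophage sum, stayed in, so these values do not separate host tissue from depth.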

How the data were processed

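Total RNA of 9 tumours was extracted with TRIzol and sequenced from full-length SMART-Seq and Nextera XT libraries, per the labels' protocols. HISAT2, edgeR and GRCh38 appear in the submitters' processing notes, with no role given. The counter, the annotation and any removal of mouse reads were not given in the sources used here. Deposited by the authors were log2 CPM values for 18364 genes, a unit read from the values: less the constant of 0.145 CPM, 100% of values under 5000 reads were whole reads within 0.1 read. Counting limits cover counting error only.

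TAZ-4SA (n = 6) and EV (n = 3) tumours were compared with limma 3.58.1 in R 4.3.3 (trended prior variance, robust step) on the log2 values as deposited. The 15578 genes averaging 1 CPM or more, the constant included, were tested, with Benjamini-Hochberg adjustment at 0.05. Cut-offs of 10 CPM included the constant too. Differences therefore include the constant, which shrinks them for low genes. Scripts were tested on simulated data. No tumours agreed within sampling noise (lowest chi-square over its degrees of freedom 18.6). Coordinates came from RefSeq, which matched 18136 identifiers, and transcript length and GC content from the longest principal GENCODE transcript, for 17539 genes. Members and lists were chosen with earlier results of these data known. Named genes were the members, WWTR1, up to 4 called genes of each list by p, and the 2 genes most alike to each of the 3 members of smallest p. The values of 1 called list gene are not reported here. Alternatives changed the constant, filter, scaling, model, weights and tumours used. Both limma-voom alternatives scaled to the read totals instead of the library sizes behind the deposited CPM.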

Additional observations from a re-analysis of the deposited data

Results flagged for a closer look

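Single tumours far from the rest of their group were sought among the TAZ-4SA tumours in 12 sets of values, where chance marks about 1 set in 20. ME1 in TAZ-4SA tumour 3 stood at -1.90 on the deposited log2 scale, from 2 reads, below the 5 other TAZ-4SA tumours. The log2 ratio of ME1 to ME2 in that tumour was -8.53, beside -2.41 to -0.95 in the 5 others. NADK in TAZ-4SA tumour 5 stood at 5.52 on the log2 scale, above the 5 others. The cause of these values was not tested.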

How the results depend on the processing

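The 4 called genes kept their direction under all 25 alternatives, except NADK, which turned to 0.37 with the GC trend removed. With that trend removed ME2 was 1.12, IDH2 -0.24 and NNT 0.51; with the length trend removed ME2 was 1.39, IDH2 -0.76, NNT 1.20 and NADK -0.45; none passed. The labels do not say whether the replicate numbers pair the tumours. Same-numbered tumours had deviations from their group means correlated at 0.03, 0.00 and -0.05, which cannot settle whether they were paired. With the number as a replicate block in tumours 1 to 3, ME2 was 1.93, IDH2 -1.77, NNT 1.14 and NADK -1.53, and 0 genes were called higher or lower among the 8. NNT was 1.02 with median-of-ratios scaling, 0.94 with limma-voom and 0.97 without TAZ-4SA tumours 5 and 6. Without TAZ-4SA tumours 2, 3 and 4, ME2 was 0.99 and NADK -1.21.

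Leaving out 1 tumour gave 1.32 to 1.77 for ME2, -2.14 to -1.67 for IDH2, 0.99 to 1.24 for NNT, -1.54 to -1.27 for NADK and -0.017 to 1.17 for ME3. ME3 was -0.62 without TAZ-4SA tumours 5 and 6 and -0.17 in tumours 1 to 3, with or without the block. It had no value with a filter of 10 CPM. Members called higher numbered 0 to 3 when 1 tumour was left out, 1 with median-of-ratios scaling, 4 with array weights and 0 with the GC trend removed. Members called lower numbered 0 to 2 when 1 tumour was left out, 1 without TAZ-4SA tumours 2, 3 and 4, and 0 with either trend removed. The ratio of ME1 to ME2 differed by -1.31 to 0.21 when 1 tumour was left out and by 0.079 with the length trend removed; with the GC trend removed the ratio of IDH1 to IDH2 differed by 1.56 and that of NADK to NADK2 by -0.53.

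List genes called higher numbered 3 to 10 when 1 tumour was left out, 0 with the block, 5 in the same tumours without it and 14 with the length trend removed. Those called lower numbered 1 to 7 when 1 tumour was left out, 7 with a constant of 2 CPM or median-of-ratios scaling, 22 with array weights, 12 with limma-voom, 14 with limma-voom and group weights, 2 with the block or the length trend removed and 1 with the GC trend removed. Over all genes, 799 to 1685 were higher and 852 to 2688 lower when 1 tumour was left out. Array weights gave 2531 higher and 5630 lower, group weights 2261 and 4542, and the block 562 higher. Lower genes numbered 3573 with limma-voom, 3384 with no filter, 967 at 10 CPM, 1057 with the length trend removed and 700 with the GC trend removed. The cause of these changes was not tested. At 0 reads, the limit of 3 reads was 0.108 to 0.303 CPM for ME3 in TAZ-4SA tumours 2, 3 and 4.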
